A study of Mus musculus with 9 samples.

Results

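The S100 genes encode small calcium-binding proteins, and 6 of them were followed here across mouse embryonic stem cells with and without the histone demethylase UTX: S100a1, S100a4, S100a6, S100a10, S100a11 and S100a13. They were chosen by symbol from a table of 33924 genes, with earlier results of the same libraries known. Their differences between groups are therefore given as a description, without p-values. Where a member is said below to pass a threshold, that describes the fit and is not a test of the member. The lists of other genes below were also chosen with earlier results known. RNA was sequenced from 9 libraries in 3 groups of 3, all male mouse embryonic stem cells grown on gelatin with LIF and serum, without treatment, per the labels. Wild type libraries and libraries labelled MLL4 knockdown (knockdown-labelled from here on) carry JM8A in their titles, and UTX knockout libraries carry A6. The labels explain neither A6 nor the further number in the titles of the MLL4 libraries, so a difference of clone or line cannot be told apart from the perturbation. Nor do they name separate cultures for the libraries within a group, so p-values given for other genes reflect the scatter of these libraries alone, possibly technical scatter. UTX, encoded by Kdm6a, removes methyl groups from lysine 27 of histone H3, and MLL4, encoded by Kmt2d, methylates lysine 4 of histone H3 at enhancers. The proteins occur in a shared complex. The comparisons ask how the S100 genes stood where either protein was the labelled target.

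S100 proteins are small dimers built from EF-hands, the helix-loop-helix fold that holds calcium. On binding calcium most of them open a surface that docks onto partner proteins, often annexins, cytoskeletal proteins or channels. S100A10 is the exception: it does not bind calcium, stays in the open form, and is held with annexin A2 in a complex at the plasma membrane. S100A11 binds annexin A1, S100A6 (calcyclin) binds the calcyclin-binding protein CACYBP, and S100A4 binds the heavy chain of non-muscle myosin MYH9. S100A1 regulates the calcium-release channels RYR1 and RYR2 and the calcium pump ATP2A2, and S100A13 takes part in the release of FGF1 and interleukin 1 alpha without a signal peptide.

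All 6 genes lie on chromosome 3, in the cluster that holds most of the family. In the RefSeq gene order S100a1 is the immediate neighbour of S100a13, and S100a10 that of S100a11. The promoter table, from RefSeq on build GRCm38.p6, had an entry for 5 of the 6 (not S100a10). Windows of 250 bases before each start were searched on both strands for TGANTCA (the AP-1 site), GGAATG (TEAD), GGGCGG (GC box), TATAAA (bound by the TATA-binding protein), CACGTG (E-box) and the SRF CArG box. The submitters' processing notes name other builds, mm9 and hg19, so the coordinates below belong to the RefSeq table only. The first sequence is the whole interval between the divergent starts of S100a1 and S100a13, chr3:90514331-90514434 on the plus strand, with its CG dinucleotides in capitals, shown because these genes had the most similar pattern of any pair of members. The second is the window of S100a11, chr3:93520246-93520495, plus strand, with AP-1 and GC box matches in capitals, shown as the member of highest level per length. The third is the window of S100a6, chr3:90612644-90612893, plus strand, shown as the member that varied most between libraries.
S100a1-S100a13 interval: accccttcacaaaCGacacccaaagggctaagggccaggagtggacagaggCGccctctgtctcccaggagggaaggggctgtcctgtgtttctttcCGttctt
S100a11: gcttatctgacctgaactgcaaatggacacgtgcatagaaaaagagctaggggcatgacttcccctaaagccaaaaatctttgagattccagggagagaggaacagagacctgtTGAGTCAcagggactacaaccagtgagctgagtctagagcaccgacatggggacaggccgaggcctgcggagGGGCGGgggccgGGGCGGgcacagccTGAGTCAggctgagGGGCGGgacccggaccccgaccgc
S100a6: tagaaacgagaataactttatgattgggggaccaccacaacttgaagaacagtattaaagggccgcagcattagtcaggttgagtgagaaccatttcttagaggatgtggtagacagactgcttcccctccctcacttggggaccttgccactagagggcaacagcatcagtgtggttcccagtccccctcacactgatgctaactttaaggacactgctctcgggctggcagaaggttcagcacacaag

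The interval between S100a1 and S100a13 is 104 bases long, so each promoter window runs over the other gene's start. It held 3 CG dinucleotides and none of the motifs searched. The S100a11 window held 2 matches to TGANTCA, starting 136 and 38 bases before the start, 3 matches to GGGCGG and 1 to CACGTG (left in lower case), none of which overlapped another. Of 32851 upstream windows of this length in the RefSeq table, 6.75% held TGANTCA, 32.7% held GGGCGG, 6.02% held CACGTG, 12.4% held TATAAA, 12.6% held GGAATG and 1.47% held the CArG box. The S100a6 window held none of the letters searched, and the S100a4 window held 1 match, to TATAAA, ending 26 bases before its start. A match describes the letters and not a site in use.

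Libraries held 18570746 to 23874816 counts in total. Levels are given as CPM, counts per 1000000 counts of a library whose size was scaled with edgeR's TMM factors. Of all genes, 14772 passed the filter on low counts, and 5 of the 6 S100 members passed, all but S100a4. Kdm6a had 89.0, 57.1 and 90.6 CPM in wild type replicates 1 to 3, 12.8, 16.9 and 19.4 in UTX knockout libraries, and 113, 108 and 99.8 in knockdown-labelled libraries. It fell in the UTX knockout by 2.27 ± 0.20 (log2, SE; edgeR adjusted p = 0.000155). Kmt2d was read from the table's symbol Mll2, which the gene reference used here did not resolve to a current symbol. Mll2 had 86.2, 43.5 and 119 CPM in wild type and 71.0, 72.0 and 73.4 in knockdown-labelled libraries, a log2 difference of -0.20 ± 0.27 (edgeR adjusted p = 0.624). Without wild type replicate 2 this became -0.51 (edgeR adjusted p = 0.0353). If Mll2 is Kmt2d here, its level does not bear out the label by itself. Wild type replicate 2 differed most from the others of its group (chi-square per degree of freedom of 56.4 and 56.5 against replicates 1 and 3). Wild type replicates 1 and 3 gave 31.6 against each other, above every pair within the other groups (6.42 to 25.8). Replicate 2 of every group was sequenced in lane 1 and replicates 1 and 3 in lane 2. Embryonic stem cell markers were present in every library, with 7 of 7 detected and summed levels of 3169 to 4309 CPM in wild type, 4221 to 4428 in UTX knockout libraries and 3947 to 4034 in the knockdown-labelled group.

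In the UTX knockout, S100a10 was the member whose libraries all lay below wild type, at 43.4% of its level by the fitted fold. S100a1 and S100a13 stood higher in the UTX knockout than in knockdown-labelled libraries, and S100a6 was lower in both perturbed groups than in 2 of the 3 wild type libraries. The order of levels per length, in CPM per kb of exon, began with S100a11, the highest in each group by its mean: 115 ± 33.8 (SD, n = 3) in wild type, 81.9 ± 13.8 in UTX knockout libraries and 91.2 ± 19.9 in the knockdown-labelled group. S100a6 (94.8 ± 82.5) and S100a10 (78.0 ± 22.2) followed in wild type. These 3 levels did not differ beyond their spread. In the UTX knockout S100a10 stood at 33.9 ± 3.34 CPM per kb and S100a6 at 31.1 ± 12.6, again within the spread, and in the knockdown-labelled group S100a10 (65.3 ± 1.86) lay above S100a6 (27.4 ± 17.9). S100a13 and S100a1 formed a lower tier, at 9.43 ± 3.55 and 5.14 ± 1.29 CPM per kb in wild type and 13.6 ± 7.57 and 9.61 ± 3.72 with UTX knocked out. In the knockdown-labelled group they stood at 4.30 ± 0.554 and 4.15 ± 0.938. The pair did not differ beyond its spread in the perturbed groups.

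**Figure D1:**
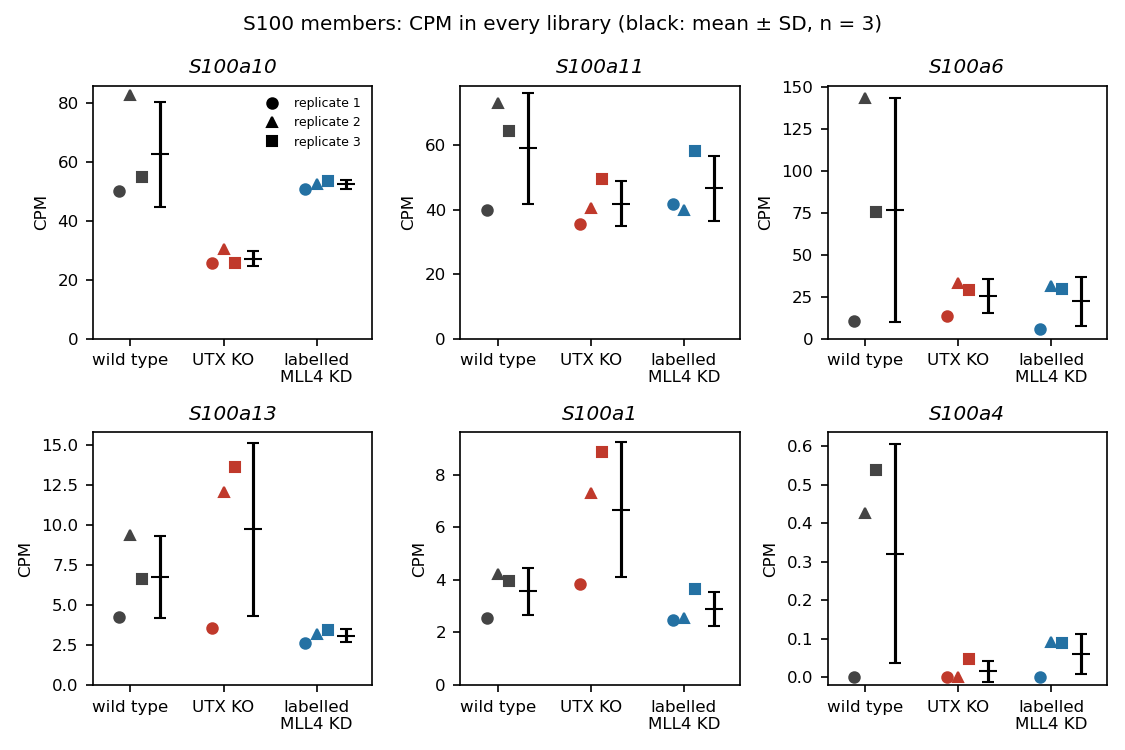
CPM of the 6 S100 members (one panel each, vertical axis in CPM from a separate scale per gene) in every library of the 3 groups, with the mean and SD of 3 libraries in black and the replicate number as the symbol. S100a10 lies between 25.5 and 30.3 CPM in the UTX knockout, below every other library. S100a6, S100a1, S100a10 and S100a13 are lowest in replicate 1 of each group.

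S100a10, the annexin A2 partner that keeps its open form without calcium, had 50.0, 82.9 and 54.8 CPM in wild type replicates 1 to 3, 25.5, 30.3 and 25.7 in UTX knockout libraries, and 50.7, 52.7 and 53.7 in knockdown-labelled libraries. Every UTX knockout library was below every other library, and the knockdown-labelled libraries lay inside the wild type range. The log2 difference of UTX knockout from wild type was -1.20 ± 0.18 (SE), and the pairs of libraries with the same replicate number gave -0.97, -1.45 and -1.09. In lane 2 alone the difference was -1.03 ± 0.13, and without wild type replicate 2, the highest library, it was -0.95. In the bulk RNA of these cultures, fewer cells expressing a gene and less RNA per cell cannot be told apart. The knockdown-labelled group differed from wild type by -0.26 ± 0.17 in S100a10, and by 0.000624 without wild type replicate 2. Against the UTX knockout the knockdown-labelled group was higher by 0.95 ± 0.18.

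Annexin A2 holds S100A10 at the membrane, and its gene Anxa2 followed another pattern. Anxa2 had 74.2, 211 and 152 CPM in wild type, 54.1, 182 and 170 in UTX knockout libraries, and 10.5, 31.5 and 28.9 in knockdown-labelled libraries. The knockdown-labelled group lay below both other groups in every library, and in each group replicate 1 was the lowest. Anxa2 fell in the knockdown-labelled group by 2.62 ± 0.52 (log2, SE; edgeR adjusted p = 0.0042) and differed by -0.11 ± 0.49 in the UTX knockout (edgeR adjusted p = 0.909). The latter turned to 0.26 without wild type replicate 2 and to 0.27 without UTX knockout replicate 1. Against the UTX knockout, Anxa2 in the knockdown-labelled group differed by -2.51 ± 0.52 (edgeR adjusted p = 0.00486). In lane 2 alone, with 2 libraries a group, the differences of the knockdown-labelled group were -2.51 from wild type and -2.49 from the UTX knockout, and neither passed (edgeR adjusted p = 0.0581 and 0.0542).

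The ratio of Anxa2 to S100a10, both in CPM per kb, was 0.822, 1.41 and 1.54 in wild type replicates 1 to 3. It was 1.18, 3.33 and 3.66 in UTX knockout libraries and 0.115, 0.331 and 0.299 in knockdown-labelled libraries. At a given replicate number the ratio was highest in UTX knockout libraries and lowest in the knockdown-labelled group. No test of this ratio was made, since the S100a10 level in it was a reason for its choice.

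**Figure D2:**
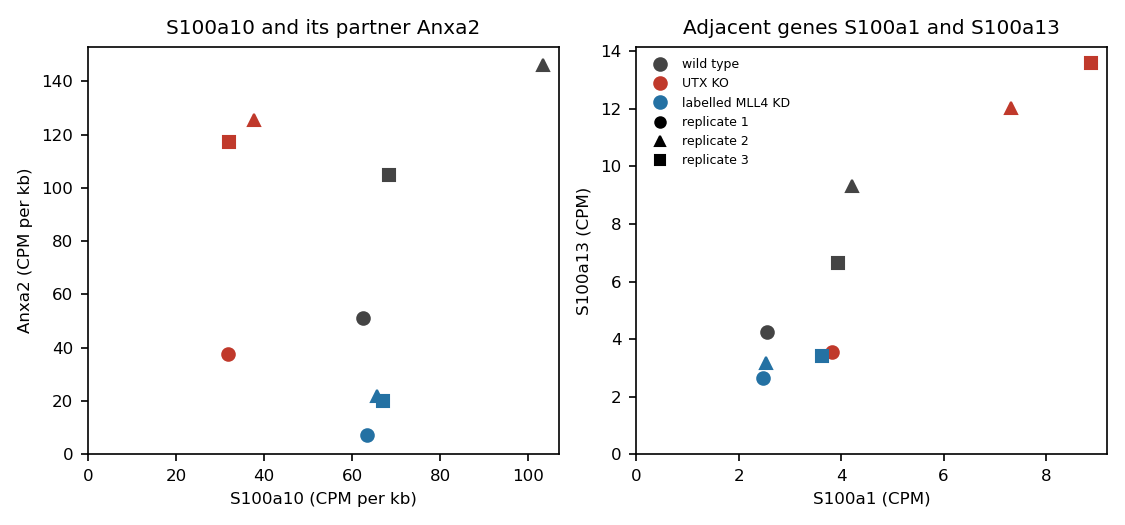
Left, Anxa2 against S100a10, both in CPM per kb of exon; right, S100a13 against S100a1, both in CPM; each point is 1 of 9 libraries, coloured by group with the replicate number as the symbol. The UTX knockout libraries sit at the left of the first panel and the knockdown-labelled libraries at its bottom, and in the second panel UTX knockout replicates 2 and 3 sit at the upper right.

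S100a11, which binds annexin A1, had 39.7, 73.0 and 64.4 CPM in wild type, 35.6, 40.5 and 49.5 in UTX knockout libraries, and 41.7, 39.7 and 58.3 in knockdown-labelled libraries. All 3 groups overlapped. The log2 difference from wild type was -0.50 ± 0.22 (SE) in UTX knockout libraries and -0.34 ± 0.22 in the knockdown-labelled group. In lane 2 alone these were -0.29 ± 0.28 and -0.06 ± 0.28. Without wild type replicate 1, the lowest library of its group, they were -0.70 and -0.54. Between the perturbed groups S100a11 differed by 0.15 ± 0.22, and by -0.04 without knockdown-labelled replicate 3.

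Anxa1, the gene of its partner, had 0.623, 22.6 and 16.1 CPM in wild type, 0.491, 1.56 and 1.90 in UTX knockout libraries, and 2.74, 3.80 and 3.50 in knockdown-labelled libraries. Wild type replicate 1 lay among the lowest libraries while replicates 2 and 3 were the highest of all. Anxa1 fell in the UTX knockout by 3.31 ± 0.86 (log2, SE; edgeR adjusted p = 0.026). The call did not hold without wild type replicate 2 or 3 or without UTX knockout replicate 1, 2 or 3 (edgeR adjusted p from 0.0586 to 0.0921, log2 differences from -3.63 to -2.67). In the knockdown-labelled group Anxa1 differed by -1.97 ± 0.79 (edgeR adjusted p = 0.0876), and without wild type replicate 1 by -2.50 (edgeR adjusted p = 0.000279).

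S100a6, or calcyclin, had 10.5, 144 and 75.6 CPM in wild type, from 202, 3377 and 1688 counts. It had 13.6, 33.1 and 28.8 CPM in UTX knockout libraries and 5.49, 31.6 and 29.4 in knockdown-labelled libraries. Wild type replicates 2 and 3 were the highest libraries, while wild type replicate 1 lay inside the range of the knockdown-labelled group, so that the groups overlapped. Replicate 1 was the lowest in each group, as it was for S100a1, S100a10 and S100a13. The highest wild type library stood 13.7-fold above the lowest, against 2.43-fold in UTX knockout libraries and 5.76-fold in the knockdown-labelled group. The SD of log2 CPM was 1.96 in wild type, larger than in 99.955% of the 2220 tested genes of similar mean level, 1.42 in the knockdown-labelled group (also larger than in 99.955%) and 0.68 in the UTX knockout (larger than in 99.4%).

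The fitted log2 difference of S100a6 from wild type was -1.61 ± 0.76 (SE) in UTX knockout libraries and -1.78 ± 0.77 in the knockdown-labelled group. With the replicate number as a block they were -1.13 ± 0.35 and -1.59 ± 0.34. Both then passed the threshold, which is a description for a member picked with results known. The same-numbered pairs gave 0.38, -2.12 and -1.39 for the UTX knockout and -0.92, -2.18 and -1.36 for the knockdown-labelled group. Pairs 2 and 3 thus had lower S100a6 in either perturbed group, and pair 1 differed in sign between them. In lane 2 alone the differences were -1.02 ± 0.96 and -1.30 ± 0.96. Without wild type replicate 2 they were -0.78 and -0.95, and without wild type replicate 1 they were -2.10 and -2.27. Between the perturbed groups S100a6 differed by -0.18 ± 0.76, with 0.07 without UTX knockout replicate 2 and 0.28 without knockdown-labelled replicate 1. The gene of its partner, Cacybp, differed from wild type by -0.19 ± 0.10 in UTX knockout libraries and -0.22 ± 0.10 in the knockdown-labelled group (edgeR adjusted p = 0.23 and 0.117).

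**Figure D3:**
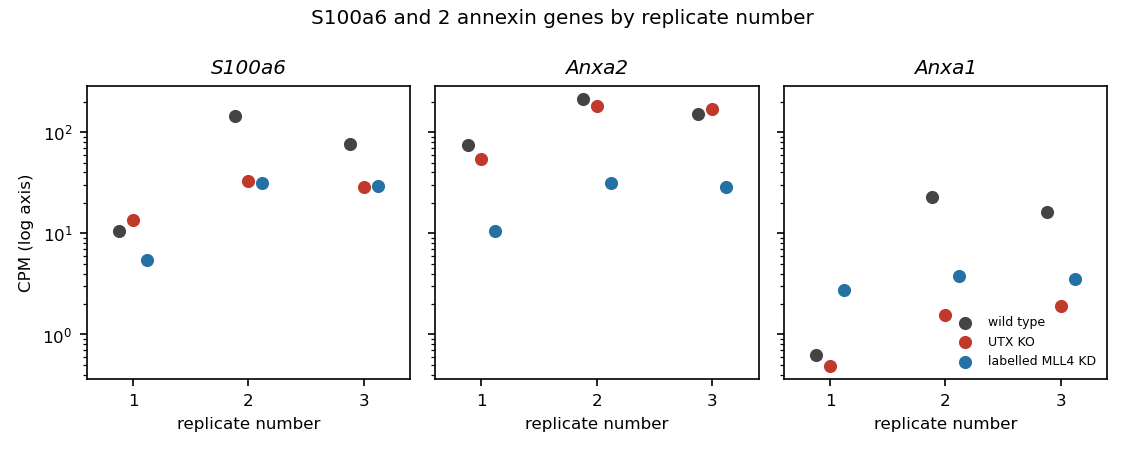
CPM on a log axis of S100a6, Anxa2 and Anxa1 by replicate number (horizontal axis, 1 to 3), with 1 point per library coloured by group. Replicate 1 is the lowest library of its group in all 3 genes, and wild type S100a6 runs from 10.5 to 144 CPM.

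The share that S100a6 took of the members' summed CPM, a sum that includes it, differed between libraries. The 6 members together summed to 107, 314 and 206 CPM in wild type, 82.1, 123 and 127 in UTX knockout libraries, and 103, 130 and 149 in knockdown-labelled libraries. S100a6 gave 9.80%, 45.9% and 36.7% of that sum in wild type, 16.6%, 26.9% and 22.8% in UTX knockout libraries, and 5.32%, 24.4% and 19.8% in the knockdown-labelled group. The sum was smallest in replicate 1 of each group, where the S100a6 share was smallest too.

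S100a1, known for its action on calcium-release channels in muscle, had 2.54, 4.22 and 3.94 CPM in wild type, 3.83, 7.31 and 8.87 in UTX knockout libraries, and 2.47, 2.53 and 3.63 in knockdown-labelled libraries. The UTX knockout lay above the knockdown-labelled group in every library and overlapped wild type in its replicate 1 only. The log2 difference from wild type was 0.90 ± 0.31 (SE) in the UTX knockout, 0.87 ± 0.21 with the replicate block, where it passed the threshold, and 0.96 ± 0.45 in lane 2 alone. The same-numbered pairs gave 0.57, 0.78 and 1.15. The knockdown-labelled group differed from wild type by -0.31 ± 0.33 and from the UTX knockout by -1.21 ± 0.32.

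S100a13, which takes part in the release of FGF1, had 4.26, 9.33 and 6.63 CPM in wild type, 3.53, 12.0 and 13.6 in UTX knockout libraries, and 2.64, 3.17 and 3.41 in knockdown-labelled libraries. Every knockdown-labelled library was below every other library. UTX knockout replicates 2 and 3 were the highest, but its replicate 1 was below wild type. The log2 difference of S100a13 in the knockdown-labelled group was -1.13 ± 0.44 (SE) from wild type and -1.66 ± 0.43 from the UTX knockout. The first was -1.09 ± 0.29 with the replicate block, where it passed the threshold, and -0.85 ± 0.59 in lane 2 alone. Its same-numbered pairs gave -0.67, -1.53 and -0.94. The UTX knockout differed from wild type by 0.53 ± 0.41, with 0.92 without UTX knockout replicate 1 and 0.23 without UTX knockout replicate 3.

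Over the 9 libraries the log2 CPM of S100a1 and S100a13 had a Pearson r of 0.89, the highest of the 10 pairs of members, and S100a6 and S100a11 had 0.78. These values describe libraries that share their groups and depth. S100a1 and S100a13 start from the short interval printed above and read away from each other. By these starts their transcripts do not overlap. Reads of any transcript that crossed the interval could not be divided between them without a stated strand setting. The differences of both genes between the perturbed groups passed the threshold with all 9 libraries. They did not pass without UTX knockout replicate 2 or 3 or without knockdown-labelled replicate 1 or 2. In lane 2 alone neither passed, at -1.05 ± 0.45 for S100a1 and -1.50 ± 0.59 for S100a13. Over all omissions of 1 library the log2 differences ran from -1.48 to -0.95 for S100a1 and from -2.05 to -1.34 for S100a13. On the other side of S100a1 lies Chtop (2500003M10Rik in the table), a chromatin-associated protein gene. Chtop differed by -0.13 ± 0.10 in the UTX knockout, 0.17 ± 0.10 in the knockdown-labelled group and 0.29 ± 0.10 between them (edgeR adjusted p = 0.438, 0.266 and 0.0541). With the replicate block the last was 0.29 ± 0.10 and passed (edgeR adjusted p = 0.0342).

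S100a4, the myosin-binding member, was near the limit of detection. It had 0, 10 and 12 counts in wild type, 0, 0 and 1 in UTX knockout libraries, and 0, 2 and 2 in knockdown-labelled libraries. A count of 0 allows up to 3 counts, which is 0.128 to 0.161 CPM in these libraries by counting error alone. Wild type replicates 2 and 3 were the only libraries above that limit, at 0.426 and 0.537 CPM. No fold is given. Replicate 1 held no S100a4 count in any group.

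Of the 5 tested members, 1 passed the threshold (edgeR, adjusted p under 0.05) in the UTX knockout against wild type, S100a10, against 15.5% of all 14772 tested genes, with 3 members at an unadjusted p under 0.05 and 2 passing with DESeq2 (1 higher and 1 lower). In the knockdown-labelled group against wild type 0 passed with edgeR, against 26.6% of all genes, with 2 members at an unadjusted p under 0.05 and 1 passing with DESeq2. Between the perturbed groups 3 passed, S100a10, S100a1 and S100a13, against 28.9% of all genes. With the replicate block the counts were 3, 2 and 3 of 5, against 23.3%, 34.1% and 36.7% of all genes. Without replicate 1 of every group, a choice made after seeing the data, they were 4, 2 and 3, while 3112, 3605 and 4076 of all genes passed. Without wild type replicate 1 alone, 3 members passed in the UTX knockout (S100a6, S100a10 and S100a11) and 3 in the knockdown-labelled group (S100a6, S100a11 and S100a13), and the counts over all genes were 2854 and 4108. Without UTX knockout replicate 1 alone, 3 passed in the UTX knockout (S100a1, S100a10 and S100a13) and 1, S100a13, in the knockdown-labelled group, with 2551 and 4018 of all genes. Between the perturbed groups S100a10 was the only member to pass when UTX knockout replicate 2 or 3, or knockdown-labelled replicate 1 or 2, was left out, and 2556, 2840, 2834 and 2739 of all genes then passed. The groups did not overlap in 1 member for the UTX knockout against wild type (31.5% of all genes), in 1 for the knockdown-labelled group against wild type (42.9%), and in 3 between the perturbed groups (52.6%). The median log2 difference of the 5 was -0.50, -0.34 and -0.18 in the 3 comparisons, beside -0.01, -0.02 and -0.02 over all tested genes. Both comparisons with wild type share the wild type libraries, and since the members were picked with these results known, nothing is read from their counts.

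**Figure D4:**
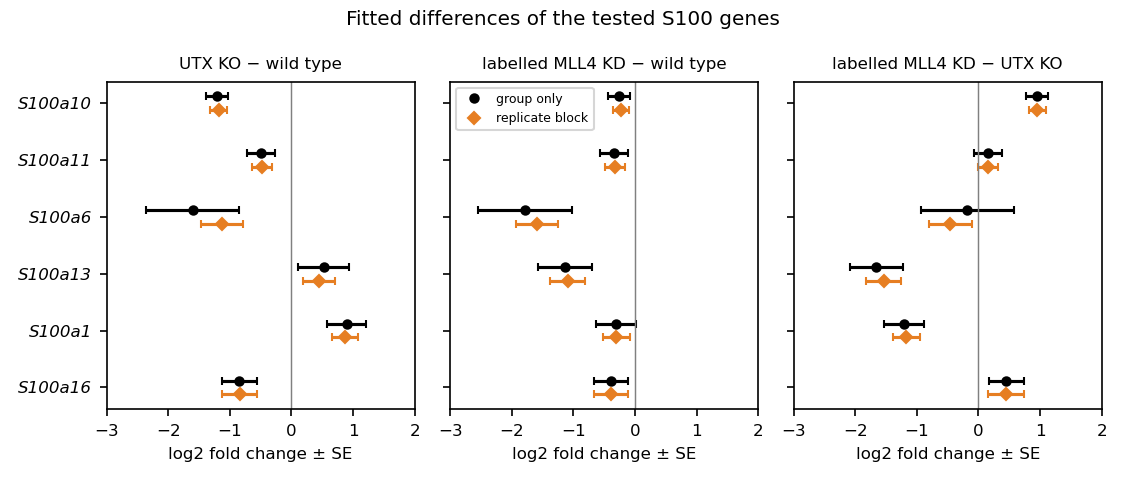
Fitted log2 fold changes with their SE (horizontal axes) of the 5 tested members and S100a16 in the 3 comparisons, from the fit with group only (black circles) and with the replicate number as a block (orange diamonds). S100a10 is at -1.20 in the UTX knockout against wild type, and the SE of S100a6 narrows from 0.76 to 0.35 with the block.

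Of 13 other S100 genes listed, 10 were in the table and 2 passed the filter, S100a16 and S100z. S100a16, which lies beyond S100a13 in the same cluster with 1 gene between, had 2.96, 5.07 and 3.76 CPM in wild type, 2.90, 1.56 and 2.14 in UTX knockout libraries, and 2.58, 3.26 and 3.14 in knockdown-labelled libraries. All UTX knockout libraries of S100a16 lay below wild type. It differed by -0.85 ± 0.28 (log2, SE; edgeR adjusted p = 0.0624), short of the threshold, and by -0.39 ± 0.28 in the knockdown-labelled group (edgeR adjusted p = 0.32). The first passed when replicate 1 of wild type or of the UTX knockout was left out. S100z had 5 to 19 counts per library and passed in no comparison (edgeR adjusted p from 0.414 to 0.767). S100a14 had 0 to 16 counts, S100a3 0 to 10, and S100a7a, S100b and S100g 0 or 1. S100a8 and S100a9, the subunits of calprotectin in neutrophils, and S100a5 had 0 counts in every library. The 6 members held 96.2% to 98.1% of all S100 family CPM in each library.

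The list of binding partners and receptors held 26 genes, 20 of them tested. This list and those below were chosen with earlier results of these data known. Their counts beside the share of all genes are therefore descriptions. In the UTX knockout 2 of the 20 rose and 3 fell (edgeR adjusted p under 0.05), beside 6.55% and 8.92% of all genes. Atp2a2, the calcium pump regulated by S100A1, rose from 429.9 ± 57.9 to 677 ± 77.7 CPM (SD, n = 3), by 0.65 on the log2 scale (edgeR adjusted p = 0.00771). Plat, the plasminogen activator that binds S100A10 at the cell surface, fell from 3.18 ± 0.222 to 1.31 ± 0.452 CPM, by 1.27 (edgeR adjusted p = 0.0192). Accn2, now named Asic1, an acid-sensing channel of the kind S100A10 carries to the membrane, fell from 16.9 ± 0.697 to 10.3 ± 0.391 CPM, by 0.71 (edgeR adjusted p = 0.00527). The others were Anxa1 and Ryr2, and Ryr2 missed the threshold when wild type replicate 2 or 3, or replicate 1 or 2 of the UTX knockout, was left out. The partner count was 3 of 20 when wild type replicate 2 or 3, or replicate 2 of the UTX knockout, was left out. All genes called were then 1994, 1815 and 833. In lane 2 alone, where 74 of all genes passed, the calls named here ended.

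In knockdown-labelled libraries 3 of the 20 partners rose and 7 fell, beside 10.8% and 15.8% of all genes. Fgf1, the growth factor released with S100A13, rose from 14.1 ± 1.56 to 46.8 ± 11.8 CPM, by 1.73 on the log2 scale (edgeR adjusted p = 9.4e-05). Syt1, the synaptotagmin of the same release complex, rose by 1.61 (edgeR adjusted p = 0.0023), though at 0.682 ± 0.0917 CPM in wild type it was low. Besides Anxa2, the calls of lower level included Ryr1, a calcium-release channel, by -0.95 (edgeR adjusted p = 0.000458), and Anxa11, the partner of S100A6, by -0.50 (edgeR adjusted p = 0.00452). Accn2 and Plat fell as well, by 1.35 and 1.66 (edgeR adjusted p = 6.1e-05 and 0.00344). Myh9, the myosin heavy chain bound by S100A4, fell by 0.75 (edgeR adjusted p = 0.0167) but did not pass without wild type replicate 3 or without knockdown-labelled replicate 1 or 3. Of the 20 partners, 4 passed in lane 2 alone, where 1341 of all 14772 tested genes did. Between the perturbed groups 2 partners were higher and 10 lower in the knockdown-labelled group, beside 13% and 16% of all genes. In lane 2 alone 5 of the 20 passed, beside 1535 of all genes.

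Other EF-hand proteins, which share the calcium-binding fold but not the S100 dimer, gave 35 genes in the table and 31 tested. In the UTX knockout 1 rose and 2 fell, beside 6.55% and 8.92% of all genes. Rcn1, a calcium-binding protein of the endoplasmic reticulum, rose from 77.2 ± 15.0 to 130.3 ± 16.4 CPM, by 0.75 on the log2 scale (edgeR adjusted p = 0.0128, and 0.0615 without UTX knockout replicate 2). Myl9, a myosin regulatory light chain, fell by 2.52 (edgeR adjusted p = 0.00314). In knockdown-labelled libraries 1 of 31 rose, Rcn1, by 0.90 (edgeR adjusted p = 0.00293), and 7 fell, beside 10.8% and 15.8% of all genes. Among them Efhd1, a mitochondrial calcium-binding protein, fell by 1.87 (edgeR adjusted p = 0.000238). The EF-hand count in the UTX knockout moved from 3 to 1 without UTX knockout replicate 2, and to 6 without wild type replicate 1. It was 7 with the replicate block or without replicate 1 of every group. In the same order, all genes called moved from 2285 to 833, 2854, 3446 and 3112. The EF-hand count was 5 with DESeq2, with no filter on low counts or without wild type replicate 2 (2926, 2623 and 1994 of all genes). With the trend on gene length removed it was 8 (2918 of all genes). In lane 2 alone, where 74 of all genes passed, all 3 calls ended (edgeR adjusted p = 0.0943 for Rcn1 and 0.0738 for Myl9). The count of 8 in the knockdown-labelled group moved to 5 without wild type replicate 3, UTX knockout replicate 2 or 3 or knockdown-labelled replicate 1. All genes called then moved from 3930 to 3548, 3565, 3712 and 2892. Without knockdown-labelled replicate 2 or 3 the EF-hand count was 3, with 2273 and 2411 of all genes. That count was 2 in lane 2 alone and 5 in a fit of the compared groups alone, with 1341 and 3308 of all genes. With the length trend removed in the fit with the replicate block it was 18, with 5911 of all genes.

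Of 7 genes that fuse an S100 domain to a long repeat, 2 were tested, Tchh and Flg. Tchh (trichohyalin), beside S100a11 with 1 gene between, fell in the UTX knockout by 1.66 (edgeR adjusted p = 0.00449, and 0.113 in lane 2 alone), from 4.88 ± 1.43 to 1.54 ± 0.437 CPM. Flg (filaggrin, a structural protein of the epidermis) had 1.04, 1.28 and 1.70 CPM in wild type, 0.933, 1.60 and 1.58 in UTX knockout libraries, and 2.26, 2.67 and 3.41 in knockdown-labelled libraries. The knockdown-labelled group lay above every other library. Flg rose there by 1.05 on the log2 scale (edgeR adjusted p = 0.0257), a call that ended without wild type replicate 1 or 2, without knockdown-labelled replicate 2 or 3 or in lane 2 alone (edgeR adjusted p from 0.0522 to 0.174). Tchh and Flg were also higher in the knockdown-labelled group than in UTX knockout libraries, by 1.75 and 1.02 (edgeR adjusted p = 0.00148 and 0.0271). For Flg that call ended without any 1 of the UTX knockout replicates, without knockdown-labelled replicate 2 or 3, or in lane 2 alone (edgeR adjusted p from 0.0522 to 0.126).

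By likeness of log2 CPM over the 9 libraries among 9989 tested genes of sufficient level, the genes closest to S100a10 were Atp1b3, Thg1l and Atic (Pearson r of 0.98, 0.98 and 0.97). Those closest to S100a6 were Phlda1, Arhgap9 and Ppp1r2 (0.95, 0.94 and 0.92). For S100a11 they were Ppid, Trip10 and Aatf (0.96, 0.95 and 0.95), for S100a1 Spsb1, Hscb and Sqstm1 (0.98 each), and for S100a13 Orc4, P4ha2 and Adpgk (0.97 each). These are the highest of 9989 values each, over libraries that share groups and depth, and are descriptions.

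Summed markers of feeder or fibroblast and of trophectoderm or simple epithelium were highest in wild type replicates 2 and 3. So were S100a6, S100a4, S100a11, S100a16, Anxa1 and, by a narrow margin in replicate 3, S100a10. S100a1 and S100a13 were not. Within the knockdown-labelled group both sums varied little, while S100a6 varied 5.76-fold. The primitive endoderm sum and the macrophage and blood sum were not highest in wild type. The 13 feeder or fibroblast markers, all in the table and 8 of them tested, summed to 54.4, 238 and 177 CPM in wild type replicates 1 to 3, 20.3 to 37.5 in UTX knockout libraries and 25.4 to 28.8 in knockdown-labelled libraries. Tagln and Acta2, at 97.5 ± 63.8 and 32.9 ± 25.4 CPM (SD, n = 3) in wild type, made up most of the mean wild type sum. Twist1 and Pdgfrb were not highest in wild type by their means. Lum was at 0 in every library, Dcn was at 0 in 6 of the 9 libraries, and Col3a1 and Postn were each at 0 in 5. The 9 trophectoderm or simple epithelium markers summed to 136, 616 and 530 CPM in wild type, 87.6 to 146 in UTX knockout libraries and 71.1 to 78.9 in the knockdown-labelled group, with Krt8 and Krt18 making up most of it in wild type replicates 2 and 3. Both sums were lowest in replicate 1 within wild type, as was every S100 member. Of 8 tested genes in each list, 5 and 5 fell in UTX knockout libraries, where 8.92% of all genes fell, and 7 and 6 in the knockdown-labelled group, where 15.8% did. The 8 primitive endoderm markers summed to 14.4 to 18.7 CPM in wild type, 15.5 to 20.5 in UTX knockout libraries and 28.6 to 40.8 in the knockdown-labelled group. Macrophage and blood markers, 7 of 8 in the table, summed to 41.2 to 70.3, 131 to 181 and 111 to 122 CPM, nearly all from Laptm5, with Tyrobp at 0 in every library. The part of other cells in the S100 differences was not tested.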

How the data were processed

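Raw read counts by gene symbol were deposited by the authors as a single table, whose 9 columns were tied to libraries through the titles. STAR 2.4 and HTSeq 0.6.1 appear without roles per the submitters' processing notes, and libraries were made with a TruSeq RNA kit per the labels' protocols. The annotation release is not given in the sources used here, nor is the use of strand, so reads of a gene and an overlapping or antisense partner cannot be told apart.

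Tests ran on the counts in edgeR 4.0.16 under R 4.3.3: TMM factors, filterByExpr by group, all 9 libraries with a term for group, the two-sided quasi-likelihood test, and Benjamini-Hochberg adjustment over the 14772 tested genes of each comparison (threshold 0.05). CPM per kb used exon lengths from GENCODE vM21. Likeness used log2 CPM with a prior count of 2 among genes of mean log2 CPM of at least 2. The members and lists were chosen with earlier results of these data known. Named from each list were genes passing against wild type, at most 6 per comparison by p, plus fixed annexins and partners, the 3 genes most like each member, and tested neighbours.

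The labels name no pairing, so the replicate block was an alternative setting. Deviations from group means correlated between same-numbered libraries by 0.168 to 0.467 in all 9 pairs. Different-numbered libraries gave -0.412 to 0.226. The highest of these, knockdown-labelled replicate 2 with UTX knockout replicate 3, was above the 0.181 of replicate 2 in both groups. Replicate 2 also differed from the others in its lane. The blocked value stands beside a result where it changed the call. Other settings were RLE factors, DESeq2 1.42.0, other filters, each library left out, lane 2 alone, the compared groups alone, and removal of the trend of counts on gene length, with and without the block.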

Additional observations from a re-analysis of the deposited data

How the results depend on the processing

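S100a10 in the UTX knockout against wild type, and between the perturbed groups, kept its direction and stayed past the threshold under every setting tried. These refits reuse the libraries whose results were known when the members were picked. They describe how the value moves with the setting and do not test it. The number of all genes called in the UTX knockout against wild type, 2285, was 3446 with the replicate block, 4381 with the block and the length trend removed, 1240 with those groups alone and 74 in lane 2 alone. It ran from 833 (without UTX knockout replicate 2; 1100 without its replicate 3) to 2854 with 1 library left out. For the labelled MLL4 knockdown against wild type, 3930, it was 5911 with the block and the length trend removed, 1341 in lane 2 alone, and 2273 to 4108 with 1 library left out (2273 and 2411 without labelled MLL4 knockdown replicates 2 and 3). Between the perturbed groups, 4275, it was 6487, 1535, and 2556 to 5281, with 2556, 2840, 2834, 2739 and 2793 without UTX knockout replicate 2 or 3 or labelled MLL4 knockdown replicate 1, 2 or 3. With 1 library left out, some values changed sign. In the UTX knockout Anxa2 ran from -0.41 to 0.27. In the labelled MLL4 knockdown S100a10 ran from -0.37 to 0.000624 and Mll2, read as Kmt2d, from -0.51 to 0.16. Between the perturbed groups S100a6 ran from -0.52 to 0.28 and S100a11 from -0.038 to 0.29. With the length trend removed, the labelled MLL4 knockdown differed from wild type by -0.09 in S100a1, -0.04 in S100a10 and -0.09 in S100a11. The cause was not tested. Added to the main fit, the pairing by replicate number changed no call of a member other than S100a1, S100a6 and S100a13. With the length trend removed, adding it moved the members called from 2 to 4 in the UTX knockout against wild type. In the labelled MLL4 knockdown against wild type they moved from 0 to 2, and between the perturbed groups from 3 to 4. Counting depth limits S100a4 and the low S100 genes.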
